A study of Mus musculus with 4 samples.

Results

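Messenger RNA of the matrix metalloproteinases (MMPs), the ADAMs, the ADAMTS proteases and the tissue inhibitors of metalloproteinases (TIMPs) was compared between basal and luminal cells sorted from the growing duct tips of the mouse prostate. Members were all protein-coding genes whose symbol begins with Mmp, Adam, Adamts or Timp followed by a number and whose value was above 0 in at least 1 library. This gave 62 of the 49671 genes in the deposited table, namely 19 MMP, 20 ADAM, 19 ADAMTS and 4 TIMP genes. A further 16 protein-coding genes of these families stood at 0 in all 4 libraries. Both cell groups came from untreated CD-1 mice at postnatal days 10 to 13 by the labels, a range that ends a day earlier in the study's methods, and were primary cells with no transgene or deletion. Cells carrying CD45, CD31 or CD140a were gated out, after which basal cells were taken as EpCAM high and CD49f high and luminal cells as EpCAM high and CD49f low. There were 2 libraries for each group, numbered basal replicates 1 and 3 and luminal replicates 3 and 2. Tips were cut from the ventral lobes of several mice, and which animals went into which library is not given in the sources used here, so the p-values measure only the spread between these samples.

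MMPs, ADAMs and ADAMTS proteases hold a zinc ion in their active site and are made as inactive precursors. MMPs cut collagens, laminins and other matrix proteins, ADAMs shed growth factors, receptors and adhesion molecules from the cell surface, and ADAMTS proteases trim proteoglycans such as versican, process procollagens or act on microfibrils. TIMPs bind the active site and block it, and in branching glands these enzymes remodel the matrix around growing tips.

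Among members with an average of 100 or more, Adamts18 and Adamts9 had the largest fitted changes, both with more RNA in basal cells. Adamts18, Adamts9, Adamts1 and Adamts17 were each higher in both basal libraries than in either luminal library, and Adamts18 was the only member that passed limma's adjusted p threshold of 0.05. No member higher in luminal cells passed it. Of the 10 members with an average of 100 or more that were past a fold of 2 toward luminal cells, 8 fell under it without luminal replicate 2, the luminal library in which markers of fibroblasts and smooth muscle were the higher.

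The values are read counts that the authors scaled to a common number of aligned reads per library. A single read was worth 6.26 and 6.49 in basal replicates 1 and 3, and 19.4 and 31.2 in luminal replicates 3 and 2. These steps correspond to between 643268 and 3194266 reads on genes, and the luminal libraries were the shallower. A low luminal value therefore rests on few reads. Of the 10 basal markers examined, including the keratins Krt5 and Krt14 and the gated CD49f gene Itga6, all were past a fold of 2 toward basal cells, and 6 of the 10 luminal markers, including Krt8 and Krt18, were past it toward luminal cells. Markers of fibroblasts and smooth muscle were above 0 in all 4 libraries. The summed value of the 14 fibroblast and stromal markers was 120313 and 245460 in basal replicates 1 and 3, and 111043 and 260373 in luminal replicates 3 and 2. The summed value of the 7 smooth muscle markers was 33681, 57469, 10991 and 63196 in the same order. Basal replicate 3 and luminal replicate 2 thus held the higher stromal sums of their groups, although the gate had excluded CD140a-positive cells. Pdgfra, the gene of CD140a, stood at 3307 and 4144 in basal replicates 1 and 3 and at 2575 and 8383 in luminal replicates 3 and 2, and Pecam1, the gene of CD31, at 833, 637, 174 and 499 in the same order. Ptprc, the gene of CD45, stood at 150, 6, 0 and 0 in that order. The summed value of the 8 immune markers was 3482, 1792, 910 and 2149, to which Cd3e gave 2173, 1462, 639 and 1807. Basal replicate 1 thus held the highest Ptprc value and immune sum.

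A filter requiring at least 10 in every library of a group with an average of at least 20 kept 55 members and 18737 genes in all. Of the 55 members, 16 (29.1%) had an average at least 2 times higher in luminal cells and 9 (16.4%) had an average at least 2 times higher in basal cells, while 30 were past neither threshold. Over all genes kept, 18.3% were past this fold toward luminal cells and 16.3% toward basal cells. When both libraries of a group had to lie above both of the other, the count was 7 members (12.7%) for luminal cells and 16 (29.1%) for basal cells, against 23.6% and 27.3% of all genes. The members' basal shares were near those of all genes in both measures. Mmp8 and Mmp12, 2 of the 9 basal-side members, and Adamts16, 1 of the 16 luminal-side members, stood at 0 in the other group and passed the filter only through the group where they were high. Mmp7 and Adam1b on the luminal side and Mmp28 on the basal side also passed it only through their high group. With both groups past the filter, 45 members remained. Of these, 12 (26.7%) were past the fold toward luminal and 6 (13.3%) toward basal cells, against 12.4% and 12% of all genes in that setting. The 52 members above 0 in both groups still include Mmp7, Adam1b and Mmp28. Among these 52, 15 (28.8%) were past the fold toward luminal and 7 (13.5%) toward basal cells, against 17.8% and 14.4% of all such genes. With limma, 0 members were higher in luminal cells and 1 was higher in basal cells at an adjusted p under 0.05, against 0.256% and 0.438% of all genes. At an unadjusted limma p under 0.05 these counts were 3 (5.45%) and 8 (14.5%), against 7.82% and 10.7% of all genes, and over the 52 members above 0 in both groups they were 2 (3.85%) and 6 (11.5%), against 6.89% and 8.6%. With edgeR on the recovered reads they were 1, Adamts16, and 2, Adamts18 and Adamts9, against 2.39% and 2.75% of the 18492 genes tested. DESeq2 called Adamts16 on the luminal side and Adamts18, Adamts9 and Adamts1 on the basal side, against 2.8% and 2.93% of the 14190 genes to which it gave an adjusted p. The calls of Adamts16 are a description, since it had to differ to be kept. The median log2 fold change of luminal over basal was -0.37 over the members and -0.10 over all genes.

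This split depended on which libraries entered. Without luminal replicate 2 the fold counts became 6 (11.3%) toward luminal and 27 (50.9%) toward basal cells, against 20.5% and 23.4% of all genes in that setting. Without basal replicate 1 the luminal count was 8 (15.1%), against 20.8% of all genes. Without basal replicate 3 it was 21 (36.8%), against 19.5%. Nuclear protein-coding genes held 76.0% and 74.7% of the summed values in basal replicates 1 and 3, and 57.3% and 64.2% in luminal replicates 3 and 2. This difference ran along the compared groups, and scaling by the total of these genes put the median of all genes at 0.21 and gave counts of 19 (34.5%) and 6 (10.9%), against 24.3% and 11.5% of all genes. Among the 36 members with an average of 100 or more, 10 (27.8%) were past the fold toward luminal cells and 6 (16.7%) toward basal cells, against 11.4% and 12.8% of all genes at this average. The groups did not overlap in 2 of the 10, Adam15 and Adamts19, against 88% of all such genes past the fold toward luminal cells. They did not overlap in 5 of the 6, the exception being Adam23, against 94.2%. Without luminal replicate 2, 2 of those 10 luminal-side genes and all 6 basal-side genes remained past the fold, against 81.7% and 86.8% of all genes called at this average. Without luminal replicate 3, 8 of the 10 and 4 of the 6 remained, against 81.5% and 75.6%, with Adam15 and Timp4 falling under it on the luminal side and Adamts1 and Adam23 on the basal side.

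**Figure D1:**
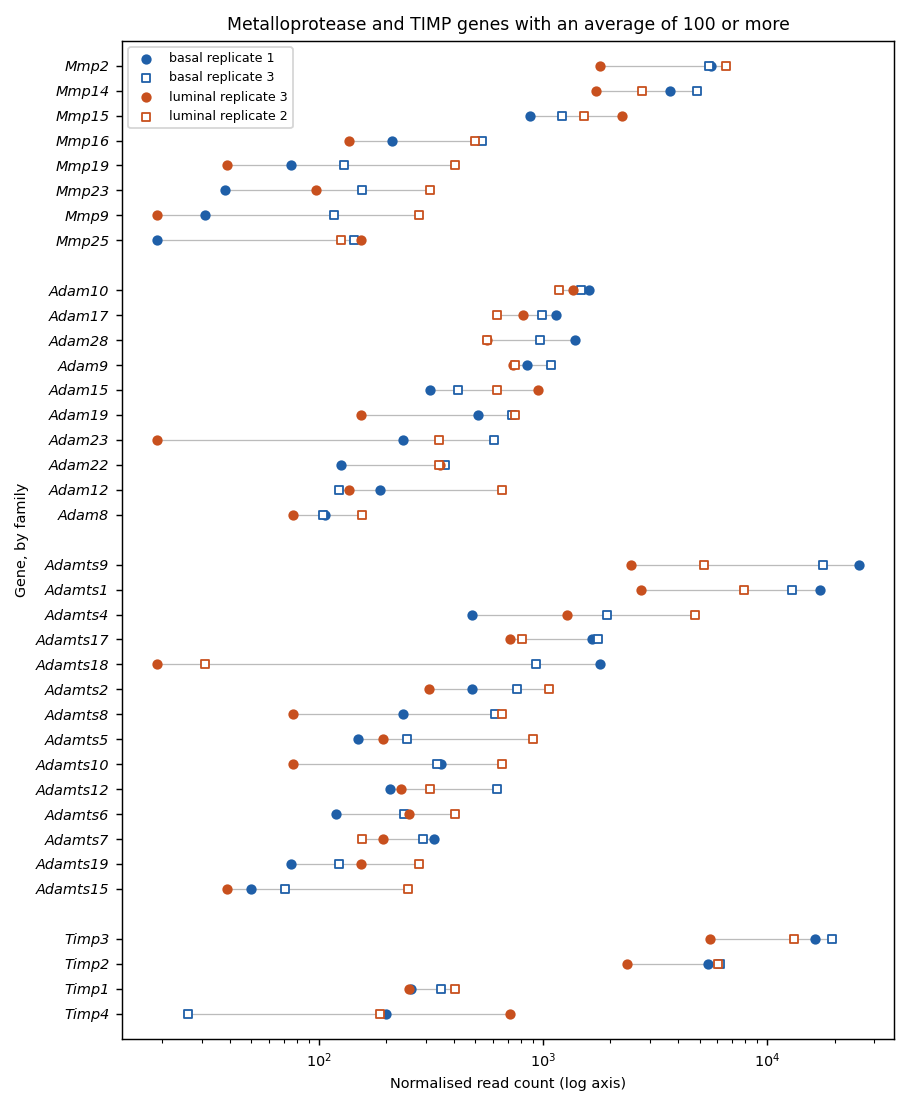
Normalised read count (log axis) of the 36 members with an average of 100 or more, by family; each symbol is 1 library, blue for basal and orange for luminal, and the grey line joins the lowest and highest value. Adamts18 shows the widest gap between the groups, and in many other genes luminal replicate 2 lies to the right of luminal replicate 3.

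Adamts18 encodes a secreted ADAMTS protease studied in branching organs. It lies on the minus strand at chr8:113697126-113848738 (GRCm38). Its values were 1797 and 935 in basal replicates 1 and 3, and 19 and 31 in luminal replicates 3 and 2. Each luminal value corresponds to 1 read, and both basal libraries were far above both luminal libraries. The log2 fold change of luminal over basal was -5.68 ± 0.63 (SE, n = 2 per group, limma adjusted p = 0.0423; edgeR adjusted p = 0.000421). From the summed reads the basal level was 57.7 times the luminal level, with a 95% interval from 15.9 to 478 that covers counting error only. When any 1 library was left out, the fold change stayed between -6.15 and -5.21 and the limma adjusted p was between 0.104 and 0.359. With unfiltered genes it was 0.228. In bulk RNA, fewer cells that express a gene and less RNA per cell cannot be told apart.

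Adamts9, a protease of versican that also has roles inside the secretory pathway, was the other gene of this family called by edgeR on the basal side. It lies at chr6:92772699-92943492 on the minus strand. It measured 25783 and 17779 in basal replicates 1 and 3, and 2478 and 5235 in luminal replicates 3 and 2. The groups did not overlap, and the basal mean (21781 ± 5660, SD, n = 2) was 5.65 times the luminal mean (3857 ± 1949, SD, n = 2). This ratio was 4.16 without luminal replicate 3 and 8.79 without luminal replicate 2. The log2 fold change was -2.57 ± 0.42, with a limma adjusted p of 0.0659 and an edgeR adjusted p of 0.00211. The call therefore depended on the test.

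Adamts1, which cuts versican and aggrecan, lies beside Adamts5 in a pair of neighbouring genes spanning chr16:85793827-85901828. The values of Adamts1 were 17210 and 12972 in basal replicates 1 and 3, and 2730 and 7884 in luminal replicates 3 and 2. All basal values exceeded all luminal values, though the luminal libraries differed from each other by a factor of 2.89. The log2 fold change was -1.69 ± 0.52 (limma adjusted p = 0.176; DESeq2 adjusted p = 0.0429). It was -0.92 without luminal replicate 3, which is under the fold of 2, and -2.45 without luminal replicate 2. Adamts5, an aggrecanase, measured 150 and 247 in basal cells and 194 and 904 in luminal replicates 3 and 2. Its groups overlapped and its highest value was in luminal replicate 2.

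Adamts17, linked to fibrillin microfibrils, showed the smallest spread of these genes. It measured 1660 and 1754 in basal replicates 1 and 3, and 716 and 810 in luminal replicates 3 and 2. Libraries of a group were nearly alike and the groups did not overlap, giving a log2 fold change of -1.16 ± 0.25 (limma adjusted p = 0.0744). The basal mean was 2.24 times the luminal mean, but 1.81 times under scaling to nuclear protein-coding genes and 1.93 times under quantile normalization, both under the fold of 2. Adamts7, which acts on cartilage oligomeric matrix protein, was also higher in both basal libraries, at 326 and 292 against 194 and 156, but under the fold of 2.

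Adamts16 was the member found in luminal libraries alone. It lies at chr13:70727802-70841811 and measured 0 in both basal libraries, and 39 and 218 in luminal replicates 3 and 2. The luminal values correspond to 2 and 7 reads. Its luminal mean was at least 6.72-fold higher than the 3-read floor of the basal libraries. This bound was 2.04-fold from luminal replicate 3 alone and 11.4-fold from luminal replicate 2 alone.

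Levels of different members were compared per kilobase of exon. In basal cells Adamts1 ranked highest, followed by Timp3, Mmp2, Timp2, Adamts9 and Mmp14, and in luminal cells the order was Mmp2, Timp3, Timp2, Adamts1, Adamts4 and Mmp14. In the luminal order the ranges of all neighbours among these 6 overlapped, Mmp2 alone running from 534 to 1941 per kilobase between luminal replicates 3 and 2. In the basal order the ranges of Timp2 and Adamts9 overlapped and those of the other neighbours did not. ADAMTS genes made up 42.8% and 36.0% of the summed per-kilobase level of all members in basal replicates 1 and 3, and 22.3% and 31.3% in luminal replicates 3 and 2. Adamts1 and Adamts9 together held 86.6% and 75.5% of the ADAMTS sum in the basal libraries, and 55.1% and 50.9% in the luminal libraries.

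Other ADAMTS proteases were past the fold toward luminal cells by their averages. Adamts4, an aggrecanase, measured 482 and 1923 in basal replicates 1 and 3, and 1278 and 4768 in luminal replicates 3 and 2. In each group the second-named library was several times the first, the groups overlapped, and the log2 fold change was 1.36 ± 0.87 (limma adjusted p = 0.453). It became 0.36 without basal replicate 1 and 0.41 without luminal replicate 2, both under the fold of 2. Adamts19 measured 75 and 123 in basal cells and 155 and 280 in luminal cells. Its groups did not overlap, but its fold without luminal replicate 2 was under 2. Adamts15, another versican protease, measured 50 and 71 in basal cells and 39 and 249 in luminal cells, so that the luminal libraries lay on both sides of the basal ones.

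The 3 procollagen N-propeptidases, Adamts2, Adamts3 and Adamts14, trim fibrillar procollagens before fibrils form, and their groups overlapped. Adamts2 measured 482 and 766 in basal replicates 1 and 3, and 310 and 1060 in luminal replicates 3 and 2. Its log2 fold change was -0.08 ± 0.65. Adamts13, the von Willebrand factor protease, was not kept by the filter.

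**Figure D2:**
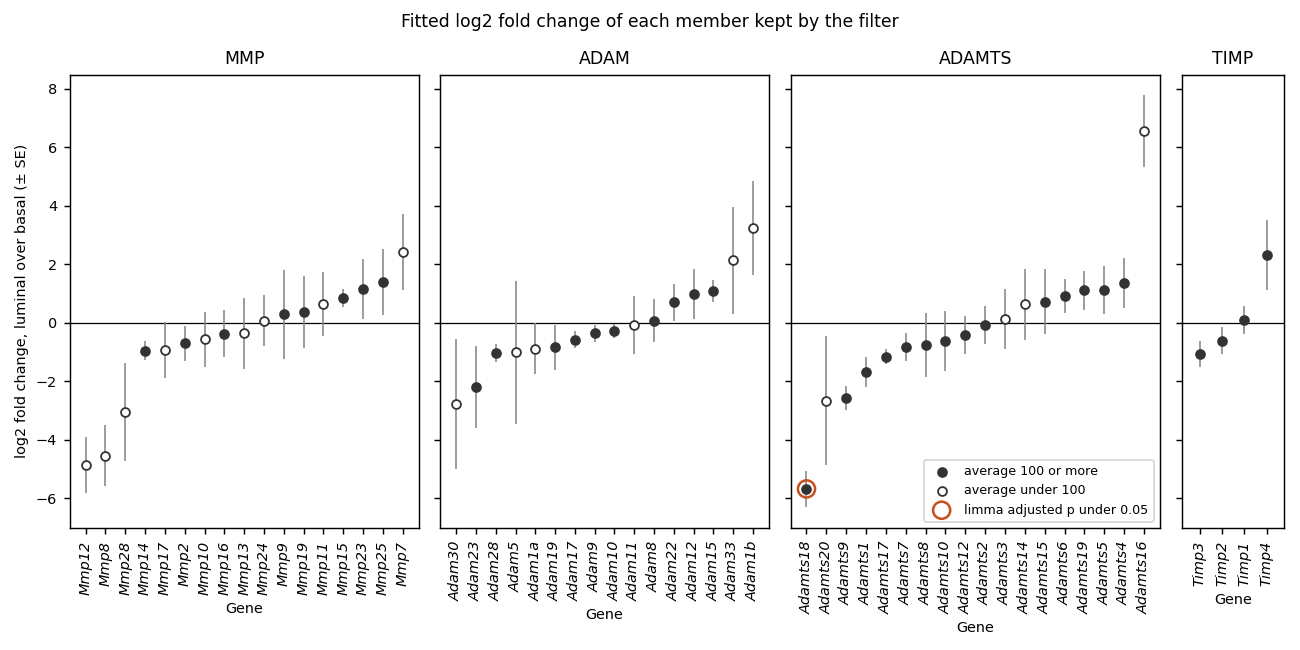
Fitted log2 fold change of luminal over basal (points) with its standard error (bars) for the 55 members kept by the filter, by family; filled points have an average of 100 or more and the ringed point has a limma adjusted p under 0.05. Adamts18 is ringed at -5.68, and many open points have long bars because they rest on few reads.

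Among the MMPs, the membrane-type enzymes Mmp14 and Mmp15 differed in opposite directions. Mmp14, the membrane-type enzyme that activates pro-MMP2 at the cell surface, measured 3682 and 4872 in basal replicates 1 and 3, and 1723 and 2773 in luminal replicates 3 and 2. Mmp15, which is closely related, measured 871 and 1215 in basal cells, and 2246 and 1527 in luminal cells. In neither gene did the groups overlap, and the log2 fold changes were -0.95 ± 0.32 for Mmp14 (limma adjusted p = 0.203) and 0.85 ± 0.32 for Mmp15 (limma adjusted p = 0.252). Neither reached a fold of 2 in averages. Mmp15 was higher in luminal replicate 3 than in luminal replicate 2, unlike most members.

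The gelatinases Mmp2 and Mmp9, which cut denatured collagen and type IV collagen, showed no difference beyond the spread of the luminal libraries. Mmp2 measured 5643 and 5489 in basal replicates 1 and 3, and 1801 and 6544 in luminal replicates 3 and 2. The basal libraries were alike, while the luminal libraries lay on both sides of them. Its log2 fold change was -0.70 ± 0.60 (limma adjusted p = 0.559) and turned to 0.23 without luminal replicate 3. Mmp9 measured 31 and 117 in basal cells, and 19 and 280 in luminal cells. Its ratio of averages was past 2, but its log2 fold change was 0.29 ± 1.52 and became -1.62 without luminal replicate 2.

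Mmp7, or matrilysin, is an MMP of glandular epithelium. It measured 19 and 13 in basal replicates 1 and 3, and 252 and 31 in luminal replicates 3 and 2. Luminal replicate 3 stood alone, since the value in luminal replicate 2 was 1 read. The log2 fold change was 2.43 ± 1.29 (limma adjusted p = 0.386). Mmp7 passed the filter only through the luminal group, so these values are a description.

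Other MMPs past the fold with an average of 100 or more were Mmp19 and Mmp23, a basement membrane protease and a cysteine-array protease. Mmp19 measured 75 and 130 in basal cells and 39 and 405 in luminal cells. Mmp23 measured 38 and 156 in basal cells and 97 and 312 in luminal cells. Both genes were highest in luminal replicate 2 and their groups overlapped.

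Mmp7 lies at the end of a run of 9 MMP genes at chr9:7272514-7699585, of which 6 were above 0 in some library and 3, Mmp1b, Mmp20 and Mmp27, were at 0 throughout. These genes include collagenases, stromelysins and the macrophage elastase Mmp12. Mmp3, a stromelysin, measured 238 in basal replicate 1 and 0 in the other libraries, so it did not pass the filter. The collagenase Mmp8 measured 38 and 13 in basal cells and 0 in both luminal libraries. Mmp12 measured 25 and 32 in basal cells and 0 in both luminal libraries, where the 3-read floors of 58.1 and 93.5 lay above its basal values. No luminal loss was therefore detectable for these 2 genes at this depth.

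Promoters from 250 bases before to 50 bases after the RefSeq transcription start (GRCm38.p6) were found for 38 of the 62 members, as 43 promoters. The motifs searched on both strands were the AP-1 motif TGANTCA and the TATA box motif TATAAA, and neither search used any measured value. The AP-1 motif was present in 7 of the 43 (16.3%), against 7.81% of all 32851 promoters, and the TATA box motif in 8 (18.6%), against 13.6%. All 6 MMP cluster genes above 0 had a promoter in the table. Of these, 5 (Mmp3, Mmp7, Mmp10, Mmp12 and Mmp13) held an AP-1 motif and all 6 held a TATA box motif, whereas 2 of the other 32 members held AP-1 letters and 2 held TATA letters. None of the 10 ADAMTS genes with a promoter held AP-1 letters. A match describes the letters in this window and does not show that a factor binds.

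The promoters of the basal-high Adamts18 and Adamts9 and of the cluster genes Mmp3 and Mmp7 are shown to set these sequence types side by side, 5′ to 3′, with capitals at AP-1 and TATA box letters. They lie at chr8:113848790-113849089 (minus strand), chr6:92943485-92943784 (minus strand), chr9:7445572-7445871 (plus strand) and chr9:7691840-7692139 (plus strand) in that order.
Adamts18: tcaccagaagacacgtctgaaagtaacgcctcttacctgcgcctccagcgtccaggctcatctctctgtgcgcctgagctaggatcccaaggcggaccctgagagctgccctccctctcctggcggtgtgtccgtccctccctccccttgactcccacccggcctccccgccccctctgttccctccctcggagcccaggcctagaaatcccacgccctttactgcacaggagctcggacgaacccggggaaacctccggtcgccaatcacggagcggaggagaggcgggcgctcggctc
Adamts9: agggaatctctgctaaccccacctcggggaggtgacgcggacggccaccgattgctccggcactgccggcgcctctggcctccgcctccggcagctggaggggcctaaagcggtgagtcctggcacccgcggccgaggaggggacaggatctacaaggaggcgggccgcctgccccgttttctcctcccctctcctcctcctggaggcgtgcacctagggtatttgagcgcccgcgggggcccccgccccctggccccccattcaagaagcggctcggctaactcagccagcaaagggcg
Mmp3: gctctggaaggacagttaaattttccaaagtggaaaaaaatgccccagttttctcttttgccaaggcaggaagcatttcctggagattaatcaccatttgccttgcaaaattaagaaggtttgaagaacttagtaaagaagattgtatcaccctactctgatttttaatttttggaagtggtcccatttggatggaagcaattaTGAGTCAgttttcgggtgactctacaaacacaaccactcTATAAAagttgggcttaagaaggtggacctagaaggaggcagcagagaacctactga
Mmp7: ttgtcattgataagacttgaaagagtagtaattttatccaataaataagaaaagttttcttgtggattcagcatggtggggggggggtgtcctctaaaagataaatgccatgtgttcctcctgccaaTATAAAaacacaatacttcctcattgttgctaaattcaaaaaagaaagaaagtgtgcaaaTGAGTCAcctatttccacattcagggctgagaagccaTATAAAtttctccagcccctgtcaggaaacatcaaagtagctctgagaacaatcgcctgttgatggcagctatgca
The G and C share was 66.0% and 70.0% in the Adamts18 and Adamts9 promoters, which held neither motif, and 40.0% and 39.0% in the Mmp3 and Mmp7 promoters shown. Another Mmp7 promoter, at chr9:7692091-7692390, held neither motif and had a G and C share of 52%. Mmp12 also had a promoter with neither motif. The AP-1 letters began at position -46 in Mmp3 and -63 in Mmp7, counted from the start site.

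Among ADAMs with protease activity, Adam15 and Adam28 were past the fold in opposite directions. Adam15, a disintegrin of epithelial and endothelial cells, measured 313 and 416 in basal replicates 1 and 3, and 949 and 623 in luminal replicates 3 and 2. The groups did not overlap and the log2 fold change was 1.09 ± 0.38 (limma adjusted p = 0.223). Adam28 measured 1384 and 968 in basal cells, and 562 and 561 in luminal cells. Its luminal libraries were nearly identical and the log2 fold change was -1.04 ± 0.31 (limma adjusted p = 0.162). Its ratio of basal to luminal averages was under 2 under nuclear protein-coding scaling and quantile normalization, at 1.69 and 1.87. Without basal replicate 1 this ratio was 1.72.

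The principal sheddases Adam10 and Adam17 differed little. Adam10, which cuts Notch receptors and E-cadherin, measured 1597 and 1475 in basal replicates 1 and 3, and 1355 and 1184 in luminal replicates 3 and 2. Its log2 fold change of -0.28 ± 0.24 became 0.032 under scaling to nuclear protein-coding genes. Adam17, which releases tumour necrosis factor and EGF receptor ligands, measured 1146 and 994 against 813 and 623, with a log2 fold change of -0.58 ± 0.29 (limma adjusted p = 0.361). Both had no overlap between groups, with the basal libraries the higher. Adam9, another sheddase, measured 845 and 1085 against 736 and 748 and followed the same order.

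Adam12 and Adam23 depended on single libraries. Adam12, a protease of mesenchymal cells, measured 188 and 123 in basal cells and 136 and 654 in luminal replicates 3 and 2, and its log2 fold change of 0.97 became -0.16 without luminal replicate 2. Adam23, which lacks protease activity and acts in adhesion, measured 238 and 604 in basal cells and 19 and 343 in luminal cells, and its ratio of basal to luminal averages was 1.98 under nuclear protein-coding scaling. Its luminal value of 19 was 1 read, and its groups overlapped. The related inactive Adam22 and Adam11 were past neither fold.

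Reads of Adam1a and Adam1b, similar genes on chromosome 5, may have been divided uncertainly between them. Adam1a measured 81 and 78 in basal cells and 58 and 31 in luminal cells. Adam1b measured 0 and 13 in basal cells and 19 and 62 in luminal cells.

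Timp3, Timp2 and Timp1 ranked 2, 4 and 7 of the 62 members per kilobase in basal cells and 2, 3 and 7 in luminal cells, while Timp4 ranked 33 and 18. Timp3, the matrix-bound inhibitor that also blocks ADAM17 and several ADAMTS proteases, measured 16364 and 19409 in basal replicates 1 and 3, and 5538 and 13119 in luminal replicates 3 and 2. Both basal libraries were the higher, and the log2 fold change was -1.06 ± 0.44 (limma adjusted p = 0.28). It was -0.44 without luminal replicate 3 and -1.69 without luminal replicate 2. Timp2, which joins MMP14 in the activation of pro-MMP2, measured 5455 and 6190 in basal cells, and 2382 and 6014 in luminal cells. Its groups overlapped, and its log2 fold change of -0.62 ± 0.46 turned to 0.050 without luminal replicate 3.

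Timp1, an inducible secreted inhibitor, measured 257 and 351 in basal cells, and 252 and 405 in luminal cells. The groups overlapped, with a log2 fold change of 0.09 ± 0.47. Timp4, the inhibitor with the most restricted tissue expression, measured 200 and 26 in basal cells, and 716 and 187 in luminal cells. It was the only TIMP past the fold toward luminal cells, with overlapping groups and a log2 fold change of 2.32 ± 1.19 (limma adjusted p = 0.371). With single libraries left out this ran from 0.87 without basal replicate 3 to 3.77 without basal replicate 1.

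Luminal replicate 2 and basal replicate 3 often held the higher value of their group. Of the 36 members with an average of 100 or more, 27 were higher in luminal replicate 2 than in luminal replicate 3, and 19 of them (52.8% of the 36) at least 2 times higher, against 15.9% of all genes kept at this average. Only Timp4 (2.78%) was at least 2 times higher the other way, against 10.9%. Basal replicate 3 was at least 2 times basal replicate 1 in 10 members (27.8%), against 7.49% of all genes, and the reverse held for 1 member, against 8.71%. The median ratio of luminal replicate 2 to luminal replicate 3 was 2.07 over these members and 1.03 over the 12462 genes with the same average and a value above 0 in luminal replicate 3. In 20 of the 36 members (55.6%) the value was higher both in basal replicate 3 than in basal replicate 1 and in luminal replicate 2 than in luminal replicate 3, against 23.5% of the 12551 genes at this average. The same held for 12 of the 14 fibroblast and stromal markers and 6 of the 7 smooth muscle markers, but for 2 of 10 basal and 0 of 10 luminal markers. The 20 members included Mmp14, Mmp9, Mmp19, Mmp23, Adam9, Adam19, Adam23, Adamts2, Adamts4, Adamts5, Timp1, Timp2 and Timp3. Adam10, Adam17, Adam28, Adamts7 and Timp4 were lower in both of these libraries. The part of stromal RNA in these values was not tested.

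**Figure D3:**
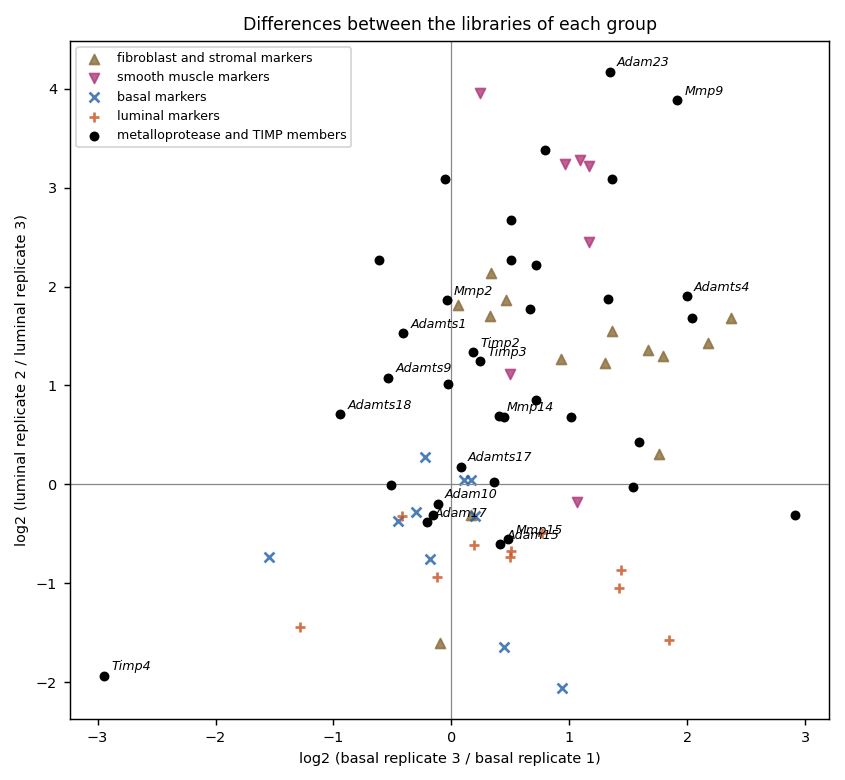
Difference between the libraries of each group, as log2 of basal replicate 3 over 1 (horizontal) and log2 of luminal replicate 2 over 3 (vertical), for the 36 members with an average of 100 or more (black) and for marker genes of 4 cell types. Of the members, 20 lie above 0 on both axes together with 12 of 14 stromal and 6 of 7 smooth muscle markers.

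The libraries could also be set against each other at like stromal sums, luminal replicate 3 against basal replicate 1 and luminal replicate 2 against basal replicate 3. These comparisons were alike in the stromal sum only. The smooth muscle sums of the former still differed, at 10991 against 33681, and single stromal markers differed in opposite directions. Dcn, the matrix proteoglycan decorin, stood at 5770 against 45830 and at 20256 against 47724, and Fbn1, the microfibril protein fibrillin-1, stood at 10408 against 2912 and at 25014 against 5547. Among members with an average of 100 or more, 3 were at least 2 times higher in basal cells in both comparisons (Adamts9, Adamts18 and, on the deposited scale, Adamts17), or 8.33% against 7% of all 12544 genes kept at this average. In luminal cells 4 were (Adamts4, Adamts19, Mmp23 and Timp4), or 11.1% against 6.67%. Timp4 stood at 716 against 200 and at 187 against 26, ratios of 3.58 and 7.19. Adamts4 stood at 1278 against 482 and at 4768 against 1923, ratios of 2.65 and 2.48. Each comparison has 1 library a side and no test, and this arrangement was chosen after the values were seen.

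Genes that act on or with the family were examined in 4 lists with 59 genes in the table, 47 of which were kept. Of these, 6 (12.8%) were past the fold toward luminal cells and 14 (29.8%) toward basal cells, against 18.3% and 16.3% of all genes. In each direction 1 passed limma's adjusted threshold, against 0.256% and 0.438% of all genes. With edgeR the counts were 2 and 6, against 2.39% and 2.75%. Papln, which encodes papilin, an ADAMTS-like glycoprotein of basement membranes, measured 3050 and 2338 in basal replicates 1 and 3, and 77 and 156 in luminal replicates 3 and 2. It was the gene higher in basal cells, with a log2 fold change of -4.59 ± 0.45 (limma adjusted p = 0.038), and its luminal values correspond to 4 and 5 reads. Dpp4, a membrane-bound dipeptidyl peptidase, measured 144 and 149 in basal cells, and 1239 and 1371 in luminal cells. It was the gene higher in luminal cells, at 3.14 ± 0.34 (limma adjusted p = 0.041). Their list of ADAMTS-like and related proteases had 16 genes kept. Past the fold were 3 (18.8%) toward luminal and 4 (25%) toward basal cells, against 18.3% and 16.3%. Bmp1 measured 1904 and 2702 in basal against 503 and 1652 in luminal cells. Adamdec1 measured 263 and 221 against 77 and 125, and Adamtsl3 13 and 91 against 58 and 280. The Bmp1 and Adamdec1 folds fell to 1.39 and 1.94 without luminal replicate 3, and that of Adamtsl3 to 1.115 without luminal replicate 2.

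Activators and convertases turn the precursors of metalloproteases into active enzymes. Of the 13 kept, 6 (46.2%) were past the fold toward basal cells and 1 (7.69%) toward luminal cells, against 16.3% and 18.3% of all genes. Furin, a Golgi convertase that cuts the precursors of ADAM, ADAMTS and membrane-type MMP enzymes, measured 4628 and 4053 in basal cells, and 1723 and 1652 in luminal cells. The related convertase Pcsk5 measured 2054 and 1650 against 252 and 405, and Pcsk6 measured 1083 and 760 against 58 and 249. The luminal values of Pcsk6 correspond to 3 and 8 reads. In all 3 convertases the groups did not overlap. The edgeR adjusted p was 0.0203 for Furin, 0.00259 for Pcsk5 and 0.0162 for Pcsk6, and the limma adjusted p was above 0.05 in each. The convertase Pcsk7 was past neither fold, with a log2 fold change of 0.31 ± 0.37.

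The other basal-high genes of this list were Bsg, Hpn and Ctsl. Bsg, or basigin, an inducer of MMPs, measured 4547 and 4242 in basal cells against 2072 and 1932 in luminal cells. Hpn, the membrane serine protease hepsin, measured 276 and 260 against 19 and 62, and Ctsl, the lysosomal cathepsin L, measured 3495 and 2839 against 678 and 1994. The luminal values of Hpn correspond to 1 and 2 reads, and its adjusted p was 0.157 with limma and 0.0891 with edgeR. The Ctsl fold was 1.59 without luminal replicate 3 and 4.67 without luminal replicate 2. Under scaling to nuclear protein-coding genes the folds of Bsg and Ctsl were 1.77 and 1.96, under the threshold of 2. St14, the epithelial membrane serine protease matriptase, was the gene past the fold toward luminal cells. It measured 977 and 1020 in basal replicates 1 and 3, and 4008 and 2026 in luminal replicates 3 and 2, with an edgeR adjusted p of 0.0235 and a limma adjusted p of 0.102. In each of these 4 genes the groups did not overlap.

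Of 9 inhibitors and decoys outside the TIMPs, 0 were past the fold toward luminal and 3 (33.3%) toward basal cells, against 18.3% and 16.3% of all genes. Spock1, or testican-1, a matrix proteoglycan, measured 1810 and 1280 in basal cells against 387 and 93 in luminal cells (edgeR adjusted p = 0.0128; limma adjusted p = 0.0922). Its luminal values correspond to 20 and 3 reads. Serpinb5, or maspin, measured 1791 and 2053 against 813 and 187. Reck, the membrane-anchored MMP inhibitor, measured 470 and 1312 in basal cells and 465 and 1184 in luminal cells, and its log2 fold change was -0.08 ± 0.67.

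Of 9 partners of ADAM10 and ADAM17, Tspan15 and Tspan33 (22.2%) were past the fold toward luminal cells and Itgb1 (11.1%) toward basal cells, shares near the 18.3% and 16.3% of all genes. The Itgb1 fold fell to 1.72 without luminal replicate 3 and 1.996 without basal replicate 3. Under nuclear protein-coding scaling and quantile normalization it was 1.81 and 1.725. The tetraspanins Tspan15 and Tspan33 direct ADAM10 to its substrates. Tspan15 measured 75 and 110 in basal cells against 136 and 280 in luminal cells, and Tspan33 measured 157 and 84 against 194 and 405. Groups did not overlap in either gene, neither passed limma's adjusted threshold, and without luminal replicate 2 the folds fell to 1.47 and 1.61. Rhbdf1, an iRhom that carries ADAM17 to the cell surface, measured 1559 and 2131 in basal cells against 1355 and 1153 in luminal cells.

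**Figure D4:**
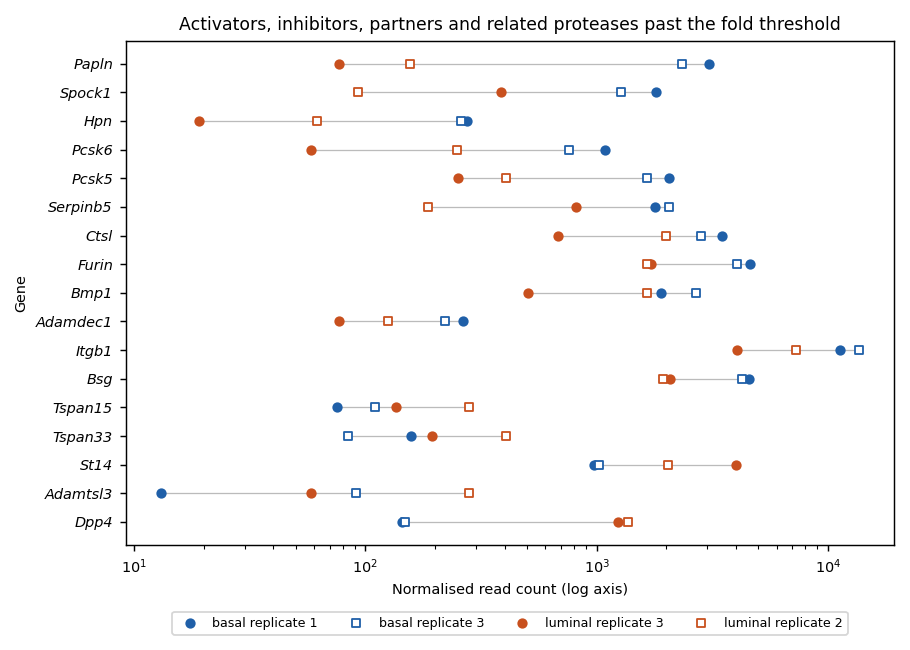
Normalised read count (log axis) of the 17 activators, inhibitors, partners and related proteases with an average of 100 or more that were past the fold; symbols as in the plot of members, with the gene highest in luminal cells relative to basal cells at the bottom. Papln and Dpp4 show a wide gap between the groups, and Furin, Pcsk5 and Pcsk6 have both basal libraries to the right of both luminal ones.

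Of the 16 family genes at 0 in every library, 13 were ADAM genes, 10 of them on chromosome 8, and 3 were MMP genes. The 13 include ADAM genes known from sperm and testis. Runs of Adam24, Adam25, Adam20 and Adam39 at chr8:40675077-40827037 and of Adam26b, Adam26a and Adam34 at chr8:43519762-43710049 had no read in any library. A count of 0 allows up to 3 reads, which corresponds to 18.8 and 19.5 in the basal libraries and to 58.1 and 93.5 in luminal replicates 3 and 2. In a further run at chr8:24602246-25016927, Adam9 was expressed at the level given above beside Adam18 and Adam3 at 0.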

How the data were processed

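Bulk RNA-seq libraries of basal and luminal cells were used, 2 of each. The authors mapped reads to GRCm38 (mm10) with STAR, counted them per gene with HTSeq, normalized the counts to a common number of aligned reads and deposited this rounded signal. The strand setting of the counting and whether duplicate reads were removed are not given in the sources used here, so a gene and an overlapping antisense gene cannot be told apart. All columns were mapped to a sample, leaving 0 unmapped.

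Genes entered the tests if either group had all its libraries at 10 or more with an average of 20 or more. A gene was past the fold if the luminal average divided by the basal average was at least 2 or at most 0.5, after the study's methods. The main test was limma 3.58.1 with a trended prior on log2(value + 1), with Benjamini-Hochberg adjustment over all genes kept. As 1 read is worth more than this pseudocount, the scale overstates fitted changes of genes with a library at 0. What 1 read was worth was read from the regular steps between low values, and 97.9% to 99.0% of low values per library lay within 0.6 of a step. Values of 533 genes did not, none of them members, and were left out of the alternative tests on recovered whole reads, made with edgeR 4.0.16 and DESeq2 1.42.0. Depth was 643268 to 3194266 reads. An exact permutation test with 2 libraries a group cannot go below p = 0.333. Folds against a group at 0 used a floor of 3 reads. Neither this floor nor the intervals cover more than counting error, since molecules were not identified. Symbols, coordinates and exon lengths (all exons of a gene merged) came from GENCODE M21 on GRCm38, and promoters from RefSeq. Scripts were run on simulated counts with a common dispersion, which did not include the stromal differences between these libraries.

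The members and gene lists were chosen with earlier results of these data known. Genes named by rule were those with an average of 100 or more past the fold or with a limma adjusted p under 0.05, all TIMPs, and Mmp2, Mmp7, Mmp9, Mmp14, Adam10, Adam17 and Adamts1. Other members and list genes, such as Adamts16, Mmp15 and Pcsk7, were named after their values were seen. Alternatives covered the filter, scaling, pseudocount, fold, count models and leaving out each library; leaving out 2 libraries together was added after seeing the data. Other tools were R 4.3.3, Python 3.11.15, numpy 2.4.6, pandas 2.3.3, scipy 1.17.1 and matplotlib 3.10.9.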

Additional observations from a re-analysis of the deposited data

How the results depend on the processing

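No paired analysis was possible because the groups share only 1 replicate number. Members past the fold numbered 16 (luminal) and 9 (basal). With a fold threshold of 4 they were 3 (5.45%, against 7.77% of all genes) and 5 (9.09% against 6.05%), and without the filter 17 (27.4% against 23.4%) and 14 (22.6% against 28%). Leaving out 1 or 2 libraries gave 6 to 21 and 8 to 27, the extremes of 6 and 27 being without luminal replicate 2; without both basal replicate 3 and luminal replicate 2 the counts were 13 (23.6% against 20.9%) and 22 (40% against 26.5%), and without basal replicate 1 and luminal replicate 3 they were 17 (30.4% against 29.4%) and 8 (14.3% against 17.6%). Members with a limma adjusted p under 0.05 numbered 0 (luminal) and 1 (basal). Without the filter the basal count was 0, with both groups past the filter 2, and with a pseudocount of 20 it was 2. edgeR gave 1 and 2, and DESeq2 gave 1 and 3. Leaving out each library gave 0 to 1 and 0 to 3; the members called were Adamts16 (without either luminal library) and Mmp3, Mmp8 and Mmp12 (without a basal library), which were at 0 in the other group, passed the filter through their high group alone and had only 1 library in the reduced group, so these calls show no loss. The count was 0 on the basal side without either luminal library. The cause was not tested.

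Over 41 named genes and their alternatives, 438 of 491 fitted values kept their direction and side of the adjusted p threshold, and 11 reversed. Most of these genes were above that threshold in the main fit, so keeping its side says little about the stability of a fold. Adam23 counted as kept throughout, while its log2 fold change ran from -4.25 to -0.14 as single libraries were left out. When each library was left out in turn, the log2 fold change ran from -0.16 to 2.10 for Adam12, -0.60 to 2.04 for Adamts15, -1.32 to 2.02 for Mmp19, -1.62 to 2.19 for Mmp9, -0.25 to 0.43 for Timp1, -1.63 to 0.23 for Mmp2 and -1.29 to 0.050 for Timp2. The lowest values were those without luminal replicate 2 and the highest those without luminal replicate 3. Without basal replicate 1 Mmp19, Mmp9 and Timp1 also reversed, to -0.040, -0.65 and -0.14. Adam10 was at 0.032 under scaling to nuclear protein-coding genes. The other 33 genes had no reversed value. Depth limits the luminal libraries, where 3 reads correspond to 58.1 and 93.5.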
